A study of Macaca mulatta with 16 samples.

Results

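The 9 genes described here encode the adhesion molecules by which circulating leukocytes are captured at, held on and led through the vessel wall. They were chosen by symbol, and all 9 had a row among the 22515 rhesus Ensembl genes of the count table and passed the filter on low counts that left 19199 genes for testing. On the endothelial side stood E-selectin (SELE), P-selectin (SELP), ICAM1, VCAM1 and PECAM1, and on the leukocyte side P-selectin glycoprotein ligand 1 (SELPLG), the integrin alpha chains ITGAM and ITGAL, and their shared beta chain ITGB2. These sides name where each molecule is best known to act. ICAM1 and PECAM1 are also carried by leukocytes and other lung cells. In bulk lung RNA, the cells that made the RNA of any of the 9, VCAM1 included, cannot be told apart.

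Leukocyte recruitment proceeds in steps. Selectins on activated endothelium bind sialylated glycans on ligands such as SELPLG, so that the leukocyte rolls. Integrins on the leukocyte are then switched to a high-affinity form and bind ICAM1 and VCAM1, which arrests the cell, and PECAM1 at the endothelial junctions takes part in the passage between the cells. SELE, ICAM1 and VCAM1 are classic transcriptional targets of inflammatory cytokines in endothelium, whereas SELP is held ready in storage granules. In the lung, intraamniotic endotoxin reaches the fetal airspace and recruits neutrophils and monocytes.

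Bulk poly(A) RNA of the fetal lung was sequenced from 16 rhesus macaques, 1 library per animal. The untreated preterm controls were 4 fetuses delivered at 131 to 135 days of gestation, and the untreated term controls were 2 fetuses delivered at 156 and 157 days. LPS (bacterial lipopolysaccharide, 1 mg into the amniotic fluid) was given to 4 fetuses at 129 or 130 days that were delivered 16 hours later (LPS 16h), and to 3 fetuses at 126 to 129 days that were delivered after 5 days (LPS). A further 3 fetuses received the same LPS at 126 or 127 days while the dam received 0.125 mg/kg of betamethasone-acetate, a slowly released corticosteroid, and they were also delivered after 5 days (LPS + Beta-Ac). The treatment was a single exposure, the labels name no injection for the controls, and no animal given Beta-Ac alone was analysed here. Sex and sequencing batch are not in the labels, so neither could be set against the groups.

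Levels are given as CPM, the count of a gene relative to the total of its library, scaled between libraries with TMM (a trimmed mean of log ratios), and always in the order of the animal numbers: 092, 101, 113 and 209 for the preterm controls, 026, 029, 035 and 038 for LPS 16h, 239, 240 and 242 for LPS, 248, 249 and 255 for LPS + Beta-Ac, and 200 and 201 for the term controls. The libraries held 20169363 to 28348816 counts in the preterm controls, 30596371 to 48052891 at LPS 16h, and 20214144 to 27616930 in the other groups. Folds are from limma on log2 CPM with 1 mean per group. A gene was called when its Benjamini-Hochberg adjusted p over all 19199 genes was below 0.05 and its fold was at least 2. All comparisons with preterm controls share the same 4 animals. With TMM the median log2 fold change of all genes at LPS 16h was -0.09, and with library totals alone it was -0.29.

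The markers of the lung cell types matched the labelled tissue. The summed level of 9 epithelial genes ranged from 7063 to 11241 CPM in the preterm controls, and that of 13 endothelial genes from 2979 to 3487 CPM. Each of these genes was detected in that group. Animals 209 and 200 lay at -53.5 and -54.1 on the second principal component of the 12 animals without LPS 16h, where the others lay between -30.7 and 36.5, and the calls at term that rest on them are given with and without them.

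At LPS 16h, SELE, VCAM1 and ICAM1 on the endothelial side and ITGAM, ITGAL and ITGB2 on the leukocyte side were higher than in preterm controls. Of the 9 genes, 6 were called higher, against 8.3% of all genes tested. In 7 of the 9 the LPS 16h animals all lay above all preterm controls, against 17% of all genes. SELP, PECAM1 and SELPLG were not called.

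**Figure D1:**
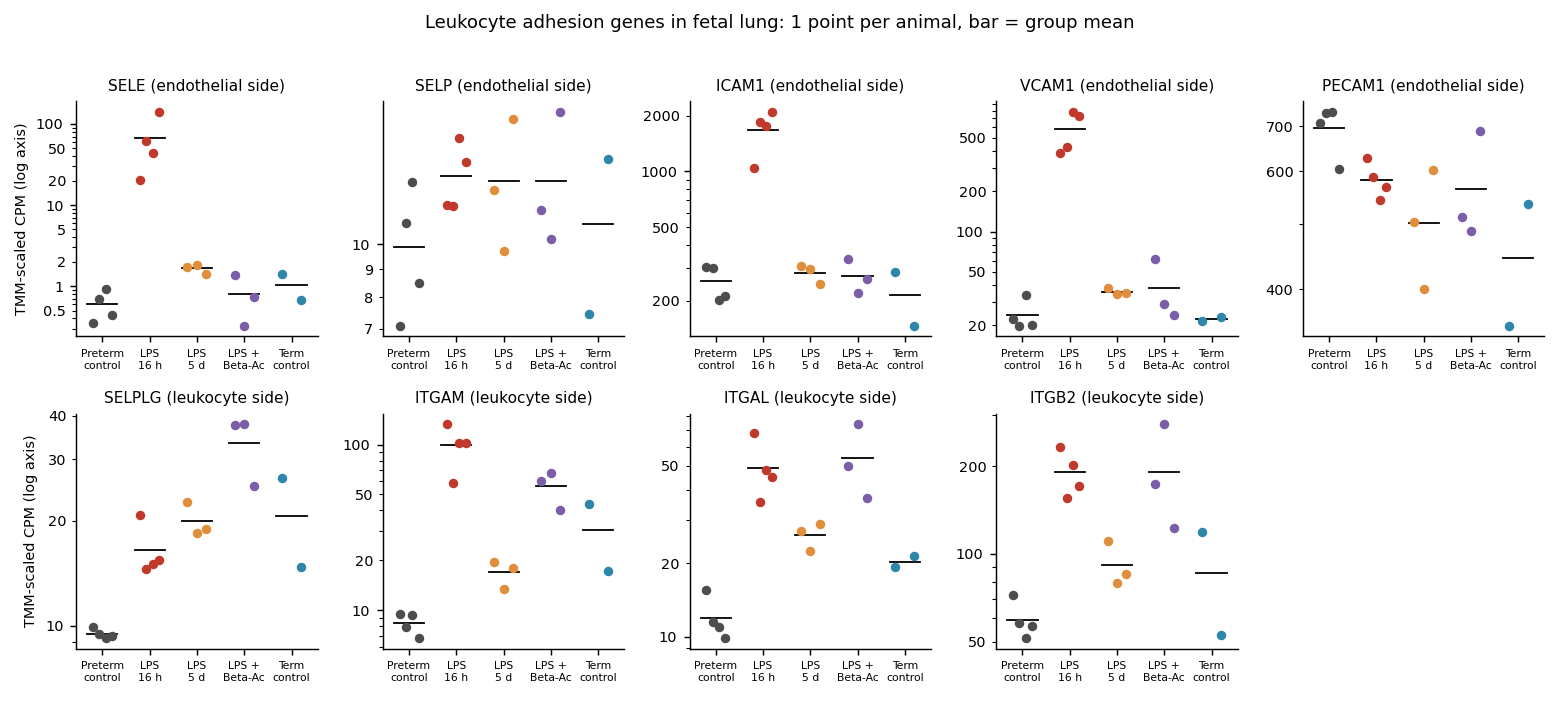
TMM-scaled CPM of the 9 adhesion genes on a log axis, with 1 point per animal and a bar at the mean of each group (preterm controls n = 4, LPS 16h n = 4, LPS n = 3, LPS + Beta-Ac n = 3, term controls n = 2). The vertical axes differ between genes. The LPS 16h animals stood far above all others for SELE, ICAM1 and VCAM1, while ITGAM, ITGAL and ITGB2 were also high with LPS + Beta-Ac.

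SELE, the selectin that endothelium makes only after activation, was low in the preterm controls, with 0.349, 0.693, 0.922 and 0.436 CPM from 8 to 26 counts per library. At LPS 16h it stood at 20.6, 61.8, 44.2 and 141 CPM. The groups were far apart, and within LPS 16h the animals spread over a 6.81-fold range. The fitted fold was 83.9 (log2 6.39 ± 0.51 SE, adjusted p = 2.04e-07), and the ratio of the group means of CPM was 111.3.

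At 5 days after LPS, SELE was at 1.74, 1.84 and 1.42 CPM, still above each preterm control but a small part of the 16-hour level. The log2 fold change of 1.45 ± 0.55 missed the call in the fit of all groups (adjusted p = 0.0955). It passed in a fit of only these groups (adjusted p = 0.0230), the lowest of the alternatives, which reached up to 0.472. With each animal left out in turn, the adjusted p was 0.0912 to 0.232. With LPS + Beta-Ac the values were 1.36, 0.326 and 0.732 CPM and overlapped those of the preterm controls. The term controls had 1.40 and 0.679 CPM.

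VCAM1, a ligand of the integrin that pairs ITGA4 with ITGB1, had 22.3, 19.9, 33.7 and 20.2 CPM in preterm controls. It reached 384, 428, 780 and 732 CPM at LPS 16h. The lowest LPS 16h animal lay above the highest preterm control by more than a factor of 10, and the fitted fold was 23.5 (log2 4.56 ± 0.29, adjusted p = 2.22e-08).

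At 5 days VCAM1 was 37.6, 34.2 and 34.7 CPM with LPS and 61.9, 28.6 and 23.7 CPM with LPS + Beta-Ac. The LPS animals lay just above all preterm controls, and the LPS + Beta-Ac animals overlapped them. Neither difference passed the test, at log2 0.60 (adjusted p = 0.236) and 0.57 (adjusted p = 0.247). Term controls, at 21.6 and 23.1 CPM, were within the preterm range.

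ICAM1, the ligand of the integrins that ITGB2 forms with ITGAL and ITGAM, was already well expressed in preterm controls, at 306, 300, 202 and 211 CPM. At LPS 16h its values were 1047, 1840, 1755 and 2096 CPM. Every LPS 16h animal lay above every control, with a fold of 6.51 (log2 2.70 ± 0.24, adjusted p = 6.01e-07). Levels of 309, 296 and 246 CPM with LPS at 5 days, 335, 221 and 262 CPM with LPS + Beta-Ac, and 285 and 147 CPM at term all overlapped the preterm range. The 95% intervals of these log2 fold changes reached from -0.38 to 0.73, from -0.46 to 0.66 and from -0.92 to 0.34.

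SELP, whose protein endothelium stores and releases within minutes, showed no such separation. Preterm controls had 7.10, 11, 13 and 8.51 CPM and LPS 16h animals 11.8, 11.8, 15.7 and 14.2 CPM, so that the ranges overlapped. The log2 fold change was 0.46, with a 95% interval from -0.08 to 1.00 (adjusted p = 0.169). The group means in the other groups ranged from 10.9 to 13.1 CPM, and no comparison of SELP passed the test. SELP is also made by megakaryocytes. Of 9 genes of that lineage 7 were tested, none was called at LPS 16h (4 of them lower and 3 higher), and their summed level was 14.2 to 23.2 CPM in preterm controls and 16.1 to 19.5 CPM at LPS 16h.

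PECAM1, a junctional adhesion molecule that endothelium makes without activation, had a lower mean in every other group than in preterm controls. It was 708, 733, 734 and 605 CPM in preterm controls, 627, 587, 543 and 568 CPM at LPS 16h, and 504, 400 and 603 CPM with LPS at 5 days. The LPS animals at 5 days all lay below the preterm controls, with animal 242 next to animal 209, and the log2 fold change of -0.48 was not called (adjusted p = 0.0635). LPS + Beta-Ac gave 513, 489 and 687 CPM and term 353 and 536 CPM, with log2 fold changes of -0.32 and -0.67 (adjusted p = 0.217 and 0.0588).

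The other endothelial genes gave a background for these values. Of 13 endothelial markers 0 were called higher and 2 lower at LPS 16h, against 8.3% and 6.07% of all genes. The 2 were KDR, a VEGF receptor (log2 -1.17), and SOX17, an arterial transcription factor (log2 -1.16). The summed level of the 13 ranged from 2378 to 3204 CPM at LPS 16h. With LPS at 5 days, with LPS + Beta-Ac and at term, 13, 11 and 13 of the 13 had a log2 fold change below 0. The medians of the list were -0.27, -0.30 and -0.46, against -0.002, -0.010 and -0.009 for all genes. In these comparisons 0, 0 and 1 were called lower, against 2.23%, 2.44% and 0.953% of all genes. In single bulk libraries, fewer cells of a type and less RNA per cell cannot be told apart. As a measure within each library, the members were divided by CDH5 (VE-cadherin, 248 ± 51.8 CPM at LPS 16h against 287 ± 27.1 CPM in preterm controls, n = 4 each). Against CDH5, SELE was higher at LPS 16h by 6.62 on the log2 scale, VCAM1 by 4.79 and ICAM1 by 2.93, SELP by 0.69, and PECAM1 differed by -0.03. PECAM1 per CDH5 differed by 0.05 with LPS at 5 days and by 0.18 with LPS + Beta-Ac.

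**Figure D2:**
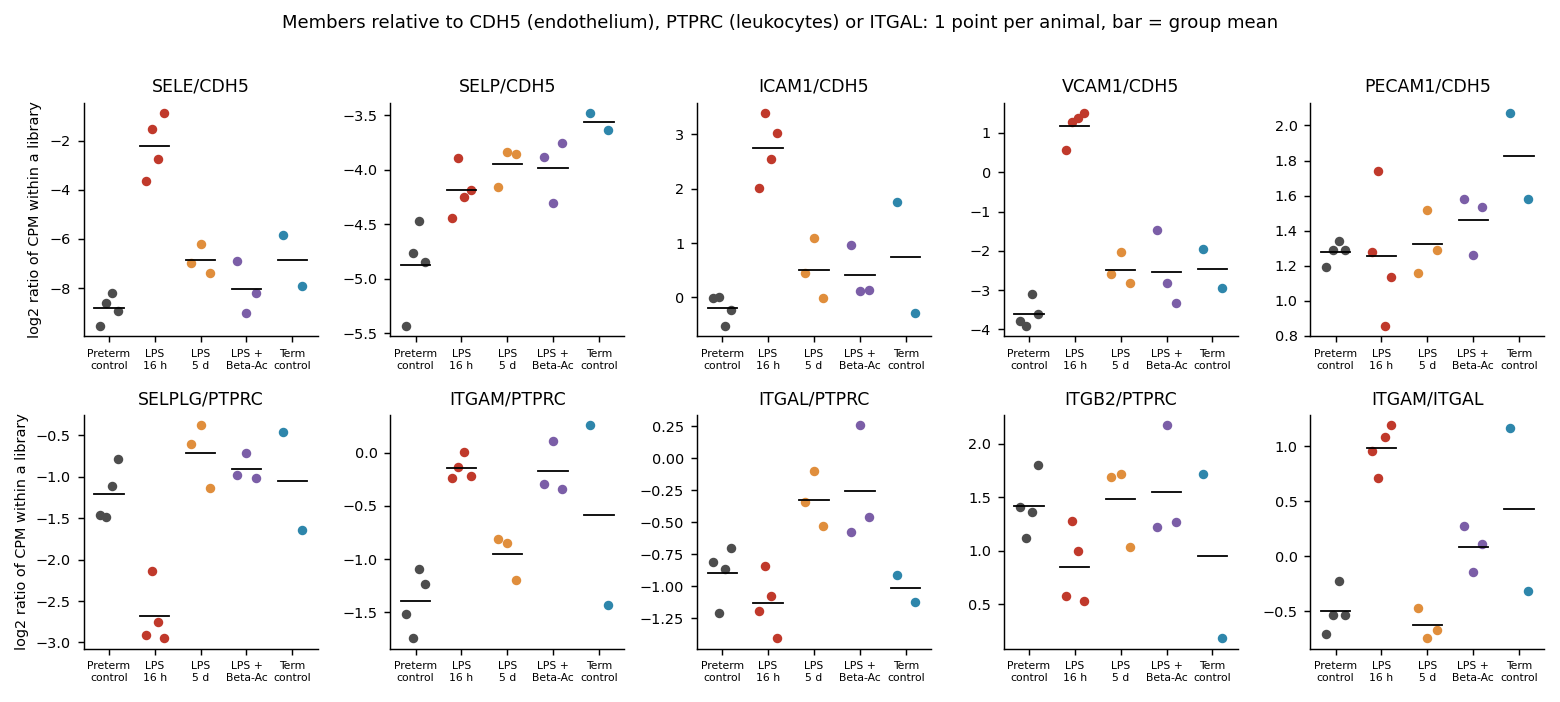
The log2 ratio of each member to CDH5 (endothelial genes) or PTPRC (leukocyte genes), and of ITGAM to ITGAL, within each library, with 1 point per animal and a bar at the group mean. SELE, ICAM1 and VCAM1 per CDH5 separated LPS 16h from all other groups, PECAM1 per CDH5 did not, and SELPLG per PTPRC was lowest at LPS 16h.

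These ratios were compared by an exact two-sided permutation test over animals, for 10 ratios in 3 comparisons. The smallest p that 4 against 4, or 3 against 4, animals allow is 0.0286, 12 of the 30 tests reached it, and their adjusted p was 0.0714, so that none passed a threshold of 0.05. The ratios of SELE, VCAM1, ICAM1 and SELP to CDH5 at LPS 16h were all at this smallest p, and the PECAM1 groups overlapped.

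On the leukocyte side at LPS 16h, ITGAM, the alpha chain of the Mac-1 integrin of neutrophils, monocytes and macrophages, moved most. It was 9.50, 7.90, 9.36 and 6.80 CPM in preterm controls and 133, 58.4, 102 and 103 CPM at LPS 16h. The groups did not overlap, and the fold was 11.3 (log2 3.50 ± 0.29, adjusted p = 2.66e-07).

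At 5 days after LPS, ITGAM was at 19.6, 13.4 and 18.1 CPM, and with LPS + Beta-Ac at 60.5, 67.1 and 40.1 CPM. Both groups lay above all preterm controls and did not overlap each other. LPS + Beta-Ac was called at log2 2.71 ± 0.31 (adjusted p = 5.96e-05). LPS alone was called only narrowly, at log2 1.01 (adjusted p = 0.0411), and lost the call whenever any animal of either group was left out (adjusted p from 0.0598 to 0.146) and with limma-voom (0.122). The term controls were far from each other, at 43.5 CPM in animal 200 and 17.1 CPM in animal 201.

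ITGAL, the alpha chain of LFA-1, which lymphocytes and most other leukocytes carry, was 15.5, 11.5, 10.9 and 9.89 CPM in preterm controls and 68.3, 35.6, 48 and 45 CPM at LPS 16h. It was 27.1, 22.4 and 28.8 CPM with LPS at 5 days and 49.9, 74.1 and 37.1 CPM with LPS + Beta-Ac. All 3 treated groups lay above the controls without overlap. Folds were 4.05, 2.20 and 4.36 (log2 2.02, 1.14 and 2.12), with adjusted p of 3.95e-06, 0.00504 and 4.05e-05. The LPS + Beta-Ac range held almost the whole LPS 16h range.

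ITGB2, the beta chain that both alpha chains need to reach the cell surface, was 72.2, 57.7, 51.5 and 56.4 CPM in preterm controls and 233, 155, 202 and 172 CPM at LPS 16h (log2 1.67 ± 0.26, adjusted p = 0.000162). It was 111, 79.3 and 85.2 CPM with LPS at 5 days, a difference that was not called (log2 0.62, adjusted p = 0.165), and 174, 279 and 122 CPM with LPS + Beta-Ac, which was called (log2 1.62 ± 0.28, adjusted p = 0.00136). Every treated animal lay above every preterm control. Term controls were at 119 and 52.7 CPM.

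SELPLG, the leukocyte mucin to which selectins bind, had the tightest control values of the set, at 9.89, 9.47, 9.22 and 9.35 CPM. LPS 16h animals had 20.8, 14.5, 15 and 15.4 CPM. All were above the controls, yet the fold of 1.71 (log2 0.77 ± 0.18, adjusted p = 0.00391) stayed below 2 and SELPLG was not called. Its order across the groups was different from that of the integrins, with 22.6, 18.5 and 18.9 CPM for LPS at 5 days and 37.6, 37.8 and 25.1 CPM for LPS + Beta-Ac, both called (log2 1.06 and 1.79, adjusted p = 0.00263 and 4.05e-05).

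**Figure D3:**
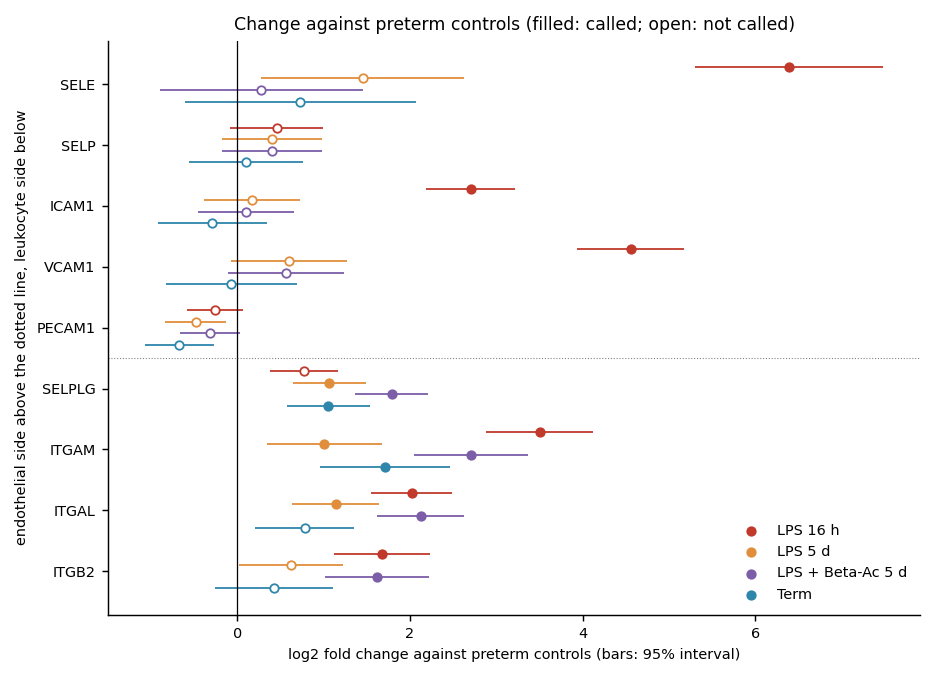
The log2 fold change of the 9 genes against preterm controls in the 4 other groups, with 95% intervals from limma. Filled points were called and open points were not. At LPS 16h called genes lie on both sides of the dotted line (SELE 6.39, VCAM1 4.56, ITGAM 3.50), and in the 5-day groups and at term all called genes lie on the leukocyte side.

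The leukocyte genes were also divided by PTPRC, the pan-leukocyte marker CD45. PTPRC itself was 27.3, 26.6, 20.004 and 16.1 CPM in preterm controls and 156, 64, 101 and 119 CPM at LPS 16h (log2 2.25, adjusted p = 7.62e-06). Per PTPRC, ITGAM was higher at LPS 16h by 1.25 on the log2 scale, while SELPLG fell by 1.47, both at the smallest exact p of 0.0286 (adjusted p = 0.0714). ITGAL and ITGB2 per PTPRC differed by -0.23 and -0.57 (exact p = 0.229 and 0.0571).

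With LPS + Beta-Ac, ITGAM per PTPRC was higher by 1.22 and ITGAL per PTPRC by 0.64, both at the smallest exact p of 0.0286, and SELPLG per PTPRC differed by 0.30 (exact p = 0.200). With LPS alone at 5 days ITGAL per PTPRC was also higher, by 0.57 (exact p = 0.0286), and ITGAM per PTPRC differed by 0.45 (exact p = 0.114). PTPRC was 34.4, 24.1 and 41.7 CPM with LPS at 5 days and 74.3, 62 and 50.9 CPM with LPS + Beta-Ac. The ratio of ITGAM to ITGAL, which compares both alpha chains within a library, differed from preterm controls by 1.48 at LPS 16h, by -0.13 with LPS at 5 days and by 0.58 with LPS + Beta-Ac (exact p = 0.0286, 0.486 and 0.0571). The LPS 16h and LPS + Beta-Ac animals had log2 ITGAM to PTPRC ratios of -0.14 ± 0.11 (SD, n = 4) and -0.17 ± 0.25 (SD, n = 3), and log2 SELPLG to PTPRC ratios of -2.68 ± 0.38 and -0.90 ± 0.17. These groups were not tested against each other on the ratios.

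Markers of the leukocyte types moved with these genes, and their part in the results was not tested. The summed level of 13 neutrophil genes was 32.3 to 63.4 CPM in preterm controls, 1560 to 2275 CPM at LPS 16h, 86.1 to 140 CPM with LPS at 5 days, 184 to 383 CPM with LPS + Beta-Ac, and 125 to 171 CPM at term. At LPS 16h 9 of the 13 were called higher, against 8.3% of all genes. Among them were S100A9, a calcium-binding protein of neutrophils and monocytes (4.48 CPM in controls and 958 CPM at LPS 16h), and CSF3R, the G-CSF receptor (10.1 and 143 CPM). S100A9 and S100A8 (505 CPM) made up most of the sum at LPS 16h. A further 2 of the 13 had a log2 fold change below 0, and 0 were called lower. ELANE and AZU1, also on this list, went from means of 0.643 and 4.55 CPM in controls to 0.347 and 2.48 CPM. CXCR2 was at 14.3 and 13.8 CPM and MPO at 0.491 and 0.502 CPM. Of 14 monocyte and macrophage genes 10 were called higher at LPS 16h, 6 with LPS at 5 days, 10 with LPS + Beta-Ac and 1 at term. The shares of all genes called higher were, in this order, 8.3%, 2.6%, 4.05% and 1.11%. Summed levels were 327 to 474 CPM in preterm controls and 1515 to 1763 CPM at LPS 16h. They were 474 to 487 CPM with LPS at 5 days, 687 to 1064 CPM with LPS + Beta-Ac and 451 to 532 CPM at term. VCAN was a large part of these sums, with means of 187 CPM in preterm controls and 579 CPM at LPS 16h. MARCO, an alveolar macrophage receptor, had no count in any preterm control. Of 15 lymphocyte genes 1, 0, 8 and 0 were called higher in the same order, against the same shares of all genes. Their summed level was 56.6 to 92.1 CPM in preterm controls and 101 to 115 CPM at LPS 16h. It was 93.1 to 123 CPM with LPS at 5 days, 133 to 188 CPM with LPS + Beta-Ac and 102 to 135 CPM at term. In that order 14, 15, 15 and 14 of the 15 had a log2 fold change above 0. The shares of all genes above 0 were 44.3%, 49.8%, 48.9% and 48.9%.

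Within LPS 16h, the animals were ordered differently on the 2 sides. Animal 026 had the lowest SELE, ICAM1 and VCAM1 of the 4 and the highest SELPLG, ITGAM, ITGAL and ITGB2. Animal 029 had the lowest value of all 4 leukocyte genes, with intermediate SELE and ICAM1. PTPRC had the same extremes, with 156 CPM in animal 026 and 64.0 CPM in animal 029. Per PTPRC, animal 026 was highest for none of the 4 leukocyte genes. With 4 animals this is a description of single libraries.

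**Figure D4:**
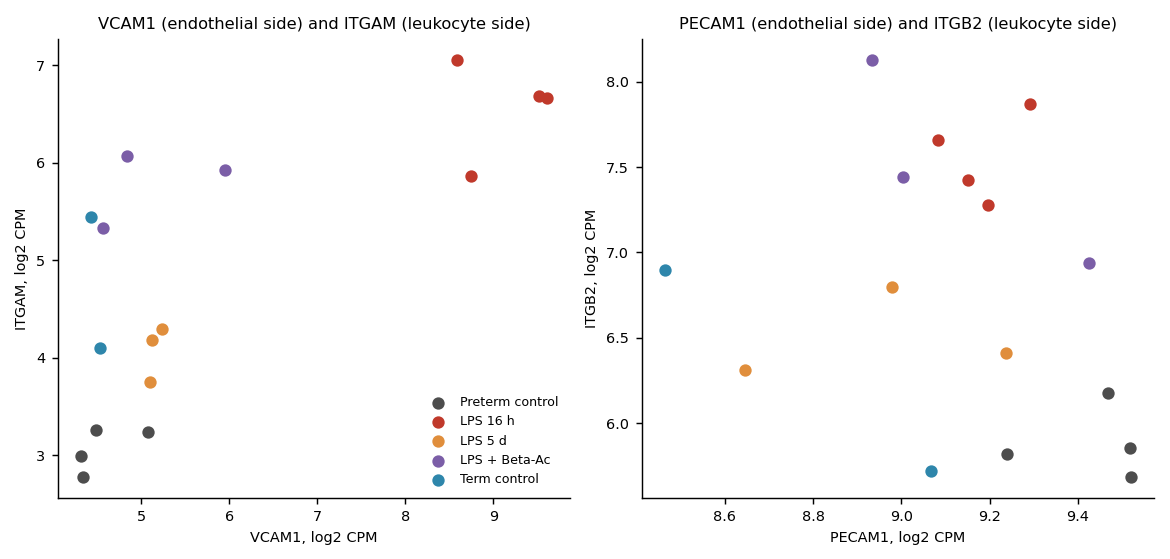
Log2 CPM of an endothelial gene (horizontal) against a leukocyte gene (vertical), with 1 point per animal coloured by group. LPS 16h animals lie at the upper right for VCAM1 and ITGAM, and LPS + Beta-Ac animals share high ITGAM (40.1 to 67.1 CPM) but have VCAM1 of 23.7 to 61.9 CPM. PECAM1 and ITGB2 show no such corner.

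The direct comparison of the time points addressed which of these differences had faded by 5 days. Relative to LPS at 5 days, 5 of the 9 genes were called higher at 16 hours, against 8.02% of all genes. They were SELE (log2 4.94 ± 0.55, adjusted p = 8.66e-06), VCAM1 (3.96 ± 0.31, 3.52e-07), ICAM1 (2.53 ± 0.26, 3.83e-06), ITGAM (2.49 ± 0.31, 2.29e-05) and ITGB2 (1.05 ± 0.28, 0.00952). ITGAL was 1.84-fold higher at 16 hours, below the fold limit (adjusted p = 0.00900). SELPLG was the only leukocyte gene with a mean below that at 5 days (log2 -0.29, adjusted p = 0.283). The ITGB2 call was lost with library totals alone and when animal 026 or animal 240 was left out. The time points differ in the animals and in the age at treatment as well. Erythroid markers differed too, with 5 of 6 called higher at 16 hours than at 5 days.

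At 5 days after LPS alone, 3 of the 9 genes were called higher than in preterm controls, SELPLG, ITGAM and ITGAL, against 2.6% of all genes. In 6 of the 9 the LPS animals lay above all preterm controls, against 13.6% of all genes. No endothelial gene was called. Without animal 239 only ITGAL was called, since the fold of SELPLG then fell just short of 2.

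With LPS + Beta-Ac, all 4 leukocyte genes and none of the 5 endothelial genes were called higher than in preterm controls. This made 4 of 9, against 4.05% of all genes, and the same 4 genes were the ones without overlap, against 14.7% of all genes. On the endothelial side, 0 genes were called by limma on log2 CPM or by limma-voom, and 0 had an unadjusted p below 0.05. Per CDH5, whose own log2 fold change was -0.50 with LPS + Beta-Ac and -0.53 with LPS (neither called), ICAM1 was higher with LPS + Beta-Ac by 0.60 without overlap (exact p = 0.0286), VCAM1 differed by 1.06 and SELP by 0.90 (exact p = 0.0857 and 0.0571). With LPS alone SELE per CDH5 was higher by 1.98 (exact p = 0.0286). ICAM1, VCAM1 and SELP per CDH5 differed there by 0.70, 1.12 and 0.93 (exact p = 0.0571 each), so these 3 differences were not particular to LPS + Beta-Ac. The largest upper bounds of the 95% intervals of the levels on the endothelial side belonged to SELE, at log2 1.46, and VCAM1, at 1.24. The 4 calls held when any animal was left out.

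The effect of Beta-Ac on top of LPS was addressed by comparing both 5-day groups. None of the 9 genes was called by limma on log2 CPM, against 0.104% of all genes called higher, and limma-voom called 0 as well. All 4 leukocyte genes were higher in every LPS + Beta-Ac animal than in every LPS animal, against 6.33% of all genes, and these 4 had an unadjusted p below 0.05. PTPRC, the pan-leukocyte marker, did so as well, with no overlap and a log2 difference of 0.92 (adjusted p = 0.491). ITGAM differed by log2 1.70 (95% interval 0.99 to 2.41, adjusted p = 0.0782), ITGB2 by 0.99 (adjusted p = 0.448), ITGAL by 0.99 (adjusted p = 0.228) and SELPLG by 0.72 (adjusted p = 0.390). ITGAM passed the test without animal 255, and likewise without animals 209 and 200. SELE was lower in every LPS + Beta-Ac animal than in every LPS animal, with log2 -1.17, a 95% interval from -2.43 to 0.09, and 9 to 48 counts per library in these groups. SELP, ICAM1, VCAM1 and PECAM1 overlapped, with 95% intervals that together reached from -0.75 to 0.68.

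Term lungs gave the level that these genes reach without LPS. Against preterm controls, 2 of the 9 were called higher at term, ITGAM (log2 1.71 ± 0.35, adjusted p = 0.0176) and SELPLG (1.06 ± 0.23, adjusted p = 0.0200), against 1.11% of all genes. Both calls were lost without animal 200, without animals 209 and 200 together, and in a fit of only these groups. ITGAL, at 19.3 and 21.3 CPM, lay above all preterm controls but was not called (log2 0.78, adjusted p = 0.118). With 2 term animals, one of which stood apart, these values are the least certain of the set.

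Against term, none of the 9 genes was called with LPS at 5 days by limma on log2 CPM or limma-voom, and 0 had an unadjusted p below 0.05. The background there was 0.0313% of all genes. With LPS + Beta-Ac 1 of 9 was called higher than at term, ITGAL (log2 1.34 ± 0.28, adjusted p = 0.0423), against 0.375% of all genes, and it lost the call with limma-voom, with library totals, in a fit of only these groups and without animal 200, 201, 248 or 249.

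Ordered by group mean, SELE, ICAM1 and VCAM1 each had LPS 16h first, above every other animal of the study, and the 4 remaining groups followed with ranges that overlapped between neighbours in that order, except that SELE with LPS at 5 days lay above the rest and that VCAM1 with LPS at 5 days lay above the preterm controls, next in its order. ITGAM ran from LPS 16h over LPS + Beta-Ac, term and LPS at 5 days to preterm controls, and only the last 2 of these neighbours were apart. For ITGAL and ITGB2, LPS + Beta-Ac and LPS 16h overlapped at the top. For SELPLG, LPS + Beta-Ac came first, overlapping with term, and preterm controls were below all other animals.

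The neighbouring genes of the pathway were described from lists that leave out the 9 members. Beside their counts stand the shares of all genes, at LPS 16h 8.3% called higher and 6.07% called lower. The shares called lower were 2.23% with LPS at 5 days, 2.44% with LPS + Beta-Ac and 0.953% at term, and those called higher are given above. Among selectin ligands and the enzymes that build their glycans, 6 of 17 were called higher and 1 lower at LPS 16h. CD44, a hyaluronan receptor that also binds SELE, rose from 129 ± 29.2 to 1248 ± 274 CPM (log2 3.28, adjusted p = 1.51e-08), FUT7, the fucosyltransferase that completes selectin ligands, from 0.932 ± 0.201 to 5.32 ± 2.10 CPM (2.37, 9.69e-06), and B4GALT1, a galactosyltransferase, from 140 ± 17.0 to 524 ± 123 CPM (1.88, 1.08e-07). EMCN, an endothelial sialomucin, fell by 1.00 on the log2 scale (adjusted p = 0.00997). FUT7 and CD44 were also among the 3 called higher with LPS + Beta-Ac, at log2 1.37 and 1.14. LPS at 5 days had 0 of 17 called. At term 1 of 17 was called higher and 1 lower, the latter CHST2, a sulfotransferase acting on these glycans (-1.14), and both counts were the same without animals 209 and 200. The median log2 fold change of this list was 0.40 at LPS 16h against -0.09 for all genes.

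Among other integrins and the proteins that activate integrins, 9 of 23 were called higher and 1 lower at LPS 16h. VAV1, a guanine nucleotide exchange factor of blood cells, was at 2.81 ± 0.31 CPM in preterm controls and 47.3 ± 10.6 CPM at LPS 16h (log2 4.02, adjusted p = 2.82e-09). FGR, a Src-family kinase (3.81), and FERMT3, the kindlin that switches on leukocyte integrins (3.13), followed. The single gene called lower was ITGA4, the alpha chain that binds VCAM1, which fell from 98.6 ± 15.8 to 41.4 ± 7.94 CPM (log2 -1.26, adjusted p = 7.48e-06), and its partner ITGB1 was not called (log2 -0.21). VCAM1 and its integrin alpha chain therefore had opposite signs at LPS 16h. ITGA4 was also low at 5 days, at 50.9 ± 5.14 CPM with LPS and 54.0 ± 3.75 CPM with LPS + Beta-Ac, neither called. In preterm controls the mean of PTPRC was 22.5 CPM, but CPM is not adjusted for gene length, so the levels of ITGA4 and PTPRC cannot be compared directly. Which cells carried ITGA4 was not tested.

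In the 5-day groups, 3 of these 23 were called higher and 1 lower with LPS, and 8 were called higher and 0 lower with LPS + Beta-Ac. ITGAX, the CD11c chain that also pairs with ITGB2, came first in both, at 44.0 ± 11.1 CPM with LPS (log2 2.32, adjusted p = 0.0316) and 105 ± 51.7 CPM with LPS + Beta-Ac (3.48, 0.00285) against 8.64 ± 1.14 CPM in preterm controls. VAV1 was again among them, at log2 1.67 with LPS and 3.07 with LPS + Beta-Ac, where FYB1, an adaptor of T cells and myeloid cells, was at 2.03. RAP1B, a small GTPase of integrin activation, was the gene called lower with LPS (-1.25, adjusted p = 8.53e-05). At term 3 of 23 were called higher, among them VAV1 and FGR, at log2 1.53 and 1.10, and without animals 209 and 200 none of the 23 was called, with VAV1 at 1.11 and FGR at 1.10 (adjusted p = 0.105 and 0.0934). The median log2 fold change of the list was 0.30 at LPS 16h, 0.02 with LPS, 0.43 with LPS + Beta-Ac and 0.15 at term.

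Among junction and transmigration genes, 2 of 19 were called higher and 2 lower at LPS 16h, with a median log2 fold change of 0.03. ACKR1, the atypical chemokine receptor of venular endothelium and red cells, was at 1.02 to 3.09 CPM in preterm controls and 112 to 160 CPM at LPS 16h (log2 6.10 ± 0.29, adjusted p = 8.51e-10), a log2 fold change close to that of SELE. It was also called at 5 days with LPS (log2 1.66), with LPS + Beta-Ac (1.67) and at term (2.40). CD226, a lymphocyte receptor, was called higher at 0.168 CPM in preterm controls, with a mean of 4.25 counts, and 0.693 CPM at LPS 16h. ICAM5 and ICAM4 were called lower at LPS 16h (-1.20 and -1.13). ICAM4, an adhesion molecule of red cells, was called higher with LPS at 5 days (1.21). There 6 of 6 erythroid markers had a log2 fold change below 0. Their summed level was 13.8 to 43.4 CPM, against 23.1 to 84.3 CPM in preterm controls. At LPS 16h 6 of 6 erythroid markers were above 0, with LPS + Beta-Ac 5 of 6 and at term 0 of 6. Mean ICAM4 was 14.8 CPM in preterm controls, 25.8 CPM with LPS + Beta-Ac and 22.1 CPM at term, the last 2 not called. Which cells carried ICAM4 was not tested. CDH5 was called lower at term (-1.22, adjusted p = 0.0308). Without animals 209 and 200, ACKR1 was still called at term (2.76, adjusted p = 0.0181) and CDH5 was not (-0.74, adjusted p = 0.251).

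Across the 16 animals, the genes whose log2 CPM followed each member most closely, by Pearson's r, were as follows. For SELE they were RGS16 (0.98), MAP3K8 (0.97) and IL17C (0.97), for ICAM1 FOSL2 (0.99), TIMP1 (0.98) and COPG1 (0.98), and for VCAM1 NFKB1 (0.99), SRPRA (0.98) and CD40 (0.98). ITGAM was followed by C5AR1 (0.99), CCR1 (0.99) and CYBB (0.99), ITGAL by DOCK2 (0.98), CD48 (0.97) and NFAM1 (0.97), ITGB2 by LILRB4 (0.96), AP1B1 (0.95) and TFEC (0.95), and SELPLG by CD68 (0.94), C1QB (0.94) and CD4 (0.93). PECAM1 was nearest to CD93 (0.90), FLI1 (0.90) and ZNF521 (0.90), and SELP to CLPX (0.79), FLT1 (0.78) and UPF2 (0.78). The LPS 16h animals stand apart from the rest in most of these genes and set much of these values, which describe the pattern only.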

How the data were processed

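The authors sequenced poly(A)-selected lung RNA as 75 bp paired-end reads, assigned them to the rhesus build Mmul_10 with kallisto, summarized them per gene and used DESeq2. The values the authors deposited are whole numbers per Ensembl gene and animal, in a unit recorded as other (unnormalized gene counts) because the automatic unit check could not read the layout of the table. Under that record no count model was run, and limma on log2 CPM was used. The sources used here name no annotation release, tool version or rounding.

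Here the counts were scaled by TMM (trimming 30% of log ratios and 5% of means) and turned into log2 CPM (prior count 2) in R 4.3.3. limma 3.58.1 was fitted with trend and robust options, with 1 mean per group over all 16 animals. Genes needed 0.371 CPM (10 counts in the median library) in 2 animals and 15 counts in total. Tests were two-sided. Replicate pairs differed by a chi-square per degree of freedom of 32.5 to 173.3, so none was a repeated library, and the number of animals limits precision more than depth does. Nothing but the animal numbers marks animals as separate, and no number occurs in 2 groups. Symbols came from a table of Ensembl IDs, in which 5259 of the IDs have none. The steps were tested on simulated data.

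The members and gene lists were chosen with earlier results of these data known, and 9 list genes had no row. Results of some list genes are not reported here. The text names the 9 members, up to 4 called genes per pathway list, direction and comparison with preterm controls, the 3 genes nearest to each member by r, CDH5 and PTPRC. Chosen after their values were seen were ITGB1, KDR, SOX17, S100A9, S100A8, CSF3R, ELANE, AZU1, CXCR2, MPO, VCAN and MARCO. Alternatives were library totals, median-of-ratios factors, no filter, a prior count of 0.5, limma-voom, a non-robust prior, no minimum fold, fits of only the groups compared, 1 added to counts in the ratios, and each animal left out. Leaving out animals 209 and 200 together was chosen after seeing the data. Promoter and protein sequences were not used here.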

Additional observations from a re-analysis of the deposited data

Results flagged for a closer look

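The difference between LPS at 16 hours and LPS at 5 days, which share no animals, was itself past the test for 5 members, on the log2 scale 4.94 for SELE, 2.53 for ICAM1, 3.96 for VCAM1, 2.49 for ITGAM and 1.05 for ITGB2, with adjusted p from limma of 8.66e-06, 3.83e-06, 3.52e-07, 2.29e-05 and 0.00952. In the LPS 16h group, animal 026 had a SELPLG level of 4.38 on the log2 CPM scale, and its gap to the next animal was 0.836 of the range of the group, above Dixon's 95% critical value for 4 samples. This was 1 of 18 groups of 4 examined, and chance alone sets about 1 in 20 apart in this way.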

How the results depend on the processing

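All values here are log2 fold changes or counts of called members. The 6 members called at LPS 16h, the 4 with LPS + Beta-Ac and the 5 higher at LPS 16h than at 5 days kept these numbers, or numbers within 1.5 times of them, under every alternative run. With library totals, with limma-voom weights and in a fit of only the groups compared, 0 members were called with LPS + Beta-Ac against term, and in the last of these fits also 0 at term against preterm. Library totals turned SELP at LPS 16h against LPS at 5 days to -0.14, and limma-voom turned SELP with LPS + Beta-Ac against LPS to 0.0081. Without animals 209 and 200, 0 members were called at term against preterm, 1 with LPS + Beta-Ac against LPS and 0 with LPS + Beta-Ac against term, and ITGB2 at term against preterm turned to -0.18. Leaving out each animal in turn gave 1 to 2 called members with LPS at 5 days, 0 to 2 at term, 0 to 1 with LPS + Beta-Ac against LPS and 0 to 1 with LPS + Beta-Ac against term. The same gave values on both sides of 0 for SELP at LPS 16h against LPS (-0.14 to 0.26), for SELE (-0.17 to 0.78) and ICAM1 (-0.059 to 0.27) with LPS + Beta-Ac against preterm, for SELP (-0.37 to 0.57), ICAM1 (-0.77 to 0.19), VCAM1 (-0.15 to 0.10) and ITGB2 (-0.16 to 1.02) at term against preterm, and for SELP (-0.23 to 0.20), ICAM1 (-0.23 to 0.067) and VCAM1 (-0.45 to 0.25) with LPS + Beta-Ac against LPS. Among the log2 ratios it did so for PECAM1 to CDH5 at LPS 16h (-0.19 to 0.11) and with LPS at 5 days (-0.053 to 0.13), and for ITGB2 to PTPRC with LPS at 5 days (-0.058 to 0.28) and with LPS + Beta-Ac (-0.18 to 0.30). None of these was called. The cause was not tested. No paired analysis was possible because no animal number occurs in 2 groups. Groups of 2 to 4 animals limit all differences, and in SELE the 8 to 26 counts per preterm library limit its fold.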
